A study of Mus musculus with 16 samples.

Results

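Dexamethasone (DEX), a synthetic glucocorticoid, was compared with no DEX in bone marrow derived mast cells (BMMCs) that had been sensitized with immunoglobulin E (IgE) and met no antigen. The samples were chosen by their treatment labels: 4 IgE DEX samples and 4 IgE samples, 8 of the 16 samples in the series. Each treatment held 2 PEP+/+ and 2 PEP-/- samples, PEP being the PEST-domain-enriched tyrosine phosphatase that Ptpn22 encodes. All cells were grown for 4 weeks from bone marrow of male C57BL/6 mice aged 8 to 10 weeks, in medium with stem cell factor and interleukin 3. IgE was given to all 8 samples for 3 h, at 0.05 µg/ml by the labels (the methods of the study state a higher concentration), and DEX at 1e-07 M for 8 h. No vehicle is named for the IgE samples. The other 8 samples of the series also received the antigen dinitrophenol (DNP) at 200 ng/ml for 1 h and serve here as a side comparison.

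The glucocorticoid receptor waits in the cytoplasm in a complex with heat shock proteins. Once it has bound its ligand it moves to the nucleus, where it binds DNA at glucocorticoid response elements or acts through other transcription factors. Mast cells carry the high-affinity IgE receptor, store histamine, proteases and heparin in granules, and release cytokines and lipid mediators when antigen cross-links the receptor. Glucocorticoids are used against allergic disease, and the comparison asks what DEX does to these cells before antigen arrives.

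RNA of each sample was sequenced, and the reads counted on genes added up to 9096387 to 22143526 per sample. Counts were scaled by library size and TMM factors and are given as CPM, the usual depth-corrected unit. Changes were tested with edgeR on the counts of all 12259 genes that passed a filter on low counts, with genotype and replicate set (samples titled 1 to 8 or A to H) as terms. A gene was called when its p-value, adjusted over all genes by the Benjamini-Hochberg method, was under 0.05, and "rose" and "fell" are written of called genes. Values after a gene name in parentheses are its log2 fold change, IgE DEX against IgE, with the standard error of the fit. CPM values with ± are means and SD of 4 samples. Positions are on GRCm38. Exons of another gene on the opposite strand overlap Sult1a1, Dusp1, Bcl2 and Cd34, whose counts are less certain. The series calls its replicates biological, but no label says whether they came from separate mice or cultures. P-values thus measure only the spread left between these samples once genotype and replicate set are taken out. In bulk RNA, fewer cells of a type and less RNA per cell cannot be told apart.

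Along the first principal component, which held 58.3% of the variance, the samples parted by treatment. The second (32.3%) parted the replicate sets and the third (4.87%) the genotypes. The cells carried the mast cell label in their RNA: the 13 mast cell markers summed to 81238 to 92978 CPM in the IgE samples and to 91102 to 100079 CPM in the IgE DEX samples. Of these 13 markers, 4 rose, 3 fell and 6 were not called (median log2 fold change 0.04). Markers of macrophages and monocytes summed to 43.7 to 111 CPM without and 34.3 to 60.1 CPM with DEX, lower with DEX in every pairing of genotype and set. Of the 5 tested, 1 was called, Ccr2, which fell. Neutrophil markers summed to 4.22 to 9.24 CPM without and 3.21 to 6.26 CPM with DEX, and lymphocyte markers to 2.78 to 10.8 and 2.2 to 3.85 CPM. Mrc1, C1qa, Elane, Camp and Cd3e stood at 0 in all 8 samples. Basophil markers, which mast cells share in part, summed to 4076 to 5452 CPM without and 2034 to 2785 CPM with DEX. Of the 6 tested, Ifitm1 (-1.12 ± 0.09) and Cd200r3 (-1.10 ± 0.09) fell, Cd69 and Csf1 rose and 2 were not called (median log2 fold change -0.13). Stromal markers summed to 3.58 to 6.85 and 19.5 to 43.1 CPM, as Cxcl12 (2.75 ± 0.22) and Pdgfrb (1.47 ± 0.27) rose with Col1a2, Pdgfra, Dcn and Lum at 0 in all 8 samples. The part of such other cells in the results was not tested. Ptpn22, the gene removed in PEP-/- mice, stood at 17.4 and 12.5 CPM in the PEP+/+ IgE samples and at 73.7 and 81.6 CPM in the PEP+/+ IgE DEX samples, and at 0, 0.0575, 0.395 and 0 CPM in the 4 PEP-/- samples. In PEP+/+ cells alone it rose with a log2 fold change of 2.37 (adjusted p = 8.89e-12).

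DEX moved a large part of the transcriptome. Of the 12259 genes, 5016 were called (40.9%), 2667 higher (21.8%) and 2349 lower (19.2%), and 4749 of the called genes moved the same way in all 4 differences between samples of the same genotype and set. Most called changes were under 2-fold (4046 of the 5016), and the median size among called genes was 0.49 on the log2 scale. Which direction held more calls depended on the setting: 2414 were higher and 2564 lower with DESeq2's size factors, 2094 and 2233 by DESeq2, 1836 and 2001 in the fit of all 16 samples, 1626 and 2021 in the lettered set alone and 1940 and 1962 in the numbered set alone. At least 2-fold changes were called for 575 genes that rose (4.69%) and 395 that fell (3.22%). Increases reached further than decreases, with 90 genes at least 8-fold higher and 6 at least 8-fold lower. All 4 IgE DEX samples lay above all 4 IgE samples for 1170 genes (9.54%) and below them for 832 (6.79%). Without the replicate block, 1340 genes were called in place of 5016, 775 of them higher, with 470 genes at least 2-fold higher and 249 at least 2-fold lower; among the genes given by sample below, Cdc6 was the one that was then not called.

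**Figure D1:**
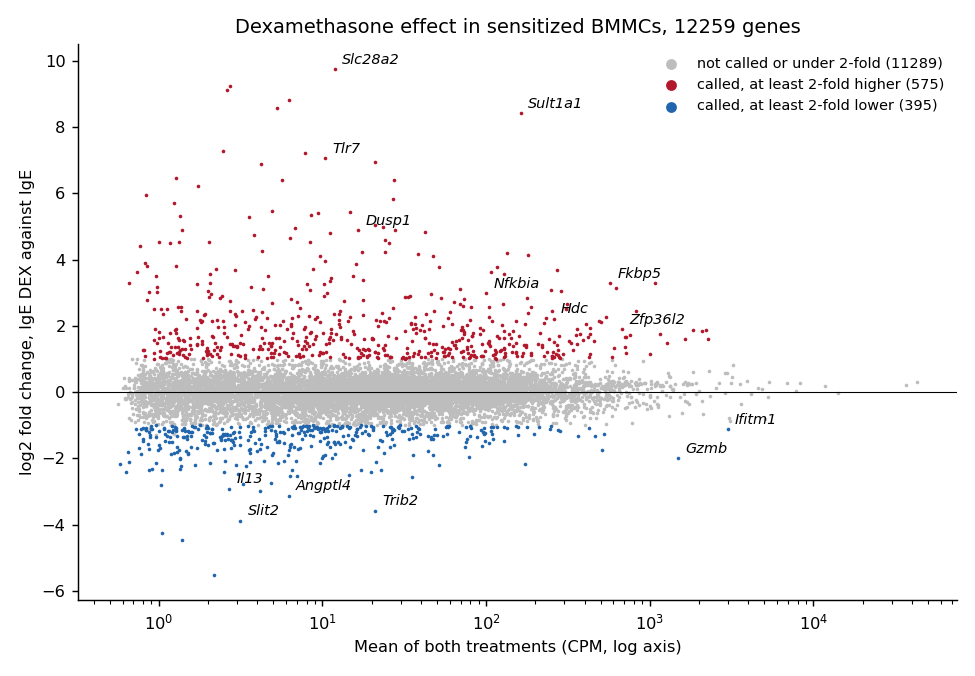
Log2 fold change by DEX of each of 12259 genes against its mean CPM over both treatments, with red and blue points for genes called and at least 2-fold higher or lower and grey for the rest. The 575 red points reach 9.74 and the 395 blue points -5.51, so increases span the wider range.

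Textbook target genes of the receptor rose together. The list held genes known as glucocorticoid targets in other cells, and of 31 tested members, 23 rose and 2 fell (median log2 fold change 1.46); 18 of those that rose did so by at least 2-fold. The members were chosen for being induced elsewhere, and the shares of all genes called higher and lower were 21.8% and 19.2%. This list and the other gene lists below were also chosen with earlier results of these data known. Tsc22d3 (chromosome X, 140539528 to 140600659) stood at 128 and 90.3 CPM in the PEP+/+ IgE samples and at 147 and 137 CPM in the PEP-/- IgE samples, against 1024 and 914 CPM in PEP+/+ IgE DEX and 1388 and 1121 CPM in PEP-/- IgE DEX. Tsc22d3 encodes GILZ, a leucine zipper protein that restrains inflammatory transcription factors, and its IgE DEX samples all lay far above the IgE samples (log2 fold change 3.15 ± 0.08, adjusted p = 1.30e-11). Fkbp5 (chromosome 17, 28399094 to 28517527) stood at 136 and 80.1 CPM in the PEP+/+ IgE samples and at 118 and 94.3 CPM in the PEP-/- IgE samples, against 1184 and 879 CPM in PEP+/+ IgE DEX and 1171 and 917 CPM in PEP-/- IgE DEX. Fkbp5, an immunophilin that lowers the receptor's affinity for hormone and so closes a feedback loop, likewise showed no overlap (log2 fold change 3.29 ± 0.09, adjusted p = 1.30e-11). Klf9 (chromosome 19, 23141226 to 23168134) stood at 15.3 and 3.45 CPM in the PEP+/+ IgE samples and at 17.9 and 6.1 CPM in the PEP-/- IgE samples, against 113 and 36 CPM in PEP+/+ IgE DEX and 127 and 49.2 CPM in PEP-/- IgE DEX. The Kruppel-like factor Klf9 was lower in the lettered set than in the numbered set under both treatments, and the groups still did not overlap (log2 fold change 2.96 ± 0.10, adjusted p = 1.10e-10).

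Further members of that list that rose were Acer2 (4.10 ± 0.09), Per1 (2.66 ± 0.08), Mt2 (2.59 ± 0.09), Irs2 (2.45 ± 0.13), Cebpb (2.24 ± 0.20) and Klf15 (2.14 ± 0.36) as well as Zbtb16. Zbtb16 is a zinc finger repressor, Acer2 a ceramidase, Per1 a clock component, Mt2 a metallothionein, Irs2 an insulin signalling adaptor and Cebpb a C/EBP transcription factor. Zbtb16 had 1 count over the 4 IgE samples against 295 over the IgE DEX samples, a ratio of 243 with a 95% counting interval of 43.3 to 9641. Smaller increases were found for Ddit4 (2.06 ± 0.08), Glul (1.89 ± 0.10), Sesn1 (1.84 ± 0.07), Mt1 (1.46 ± 0.08), Pik3r1 (1.32 ± 0.06), Cebpd (1.06 ± 0.23), Txnip (0.78 ± 0.07) and Gadd45a (0.72 ± 0.15). The smallest were those of Cdkn1a (0.48 ± 0.08), Bcl6 (0.47 ± 0.15) and Slc19a2 (0.39 ± 0.13). Angptl4, a secreted inhibitor of lipoprotein lipase, fell from 11.1 ± 5.66 to 1.27 ± 0.214 CPM (SD, n = 4; log2 fold change -3.13 ± 0.24, adjusted p = 2.96e-07), and Tgm2, tissue transglutaminase, also fell (log2 fold change -1.47 ± 0.11, adjusted p = 2.52e-07). The 6 members that were not called were Sgk1 (0.54 ± 0.28), Zfp36 (0.05 ± 0.24), Errfi1 (-0.08 ± 0.19), Rgs2 (-0.22 ± 0.09), Cd163 (-0.13 ± 0.13) and Anxa1 (-0.10 ± 0.13). Anxa1, which encodes the glucocorticoid-regulated protein annexin A1, went from 87.7 ± 18 to 81.6 ± 17.2 CPM and an adjusted p of 0.55.

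**Figure D2:**
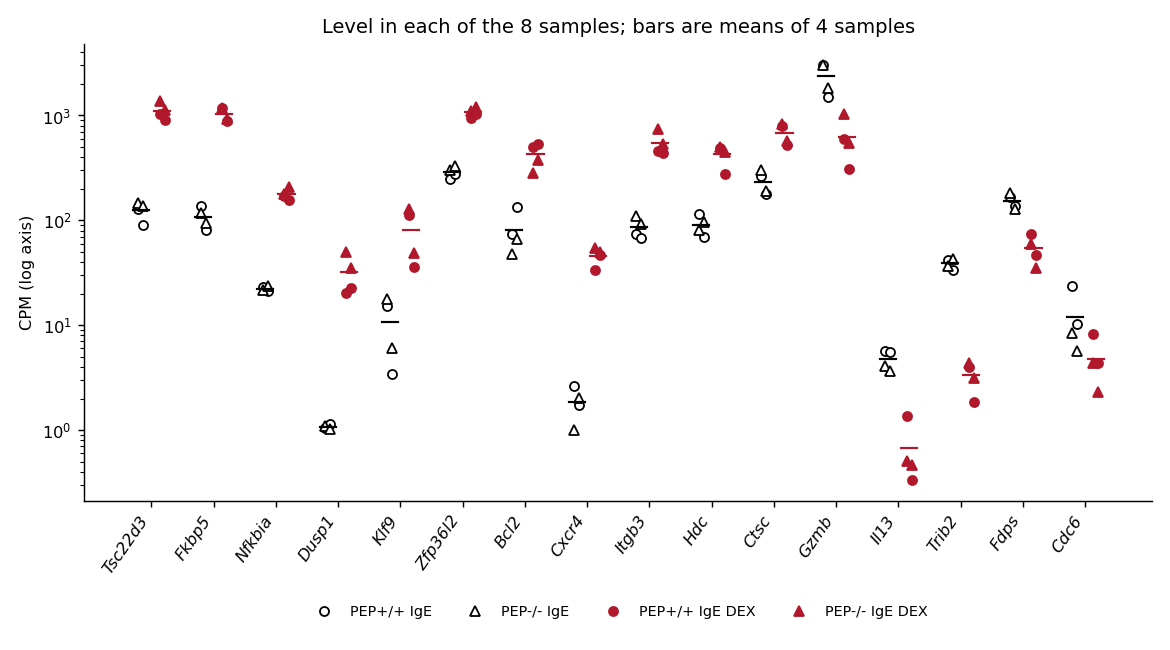
CPM of 16 genes in each of the 8 samples on a log axis, with open symbols for IgE, red symbols for IgE DEX, circles for PEP+/+, triangles for PEP-/- and bars for means of 4 samples. The treatments are apart for every gene but Cdc6, whose IgE DEX values of 2.33 to 8.16 CPM reach into the IgE range of 5.7 to 23.7 CPM.

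The receptor gene and its helpers moved in both directions. Of 21 tested genes of the receptor, its chaperones and steroid metabolism, 4 rose and 4 fell (median log2 fold change -0.06), shares of the list close to those of all genes tested (21.8% higher and 19.2% lower). The largest change of the list was that of Fkbp5 (above, 3.29 on the log2 scale). The receptor gene Nr3c1 fell from 169 ± 56.7 to 128 ± 34.7 CPM (log2 fold change -0.38 ± 0.07, adjusted p = 8.45e-04). Of the chaperones and cochaperones that hold the receptor ready for hormone, Hsp90aa1 (-0.80 ± 0.09), Fkbp4 (-0.60 ± 0.07) and Stip1 (-0.38 ± 0.07) fell, while Hspa4 (0.40 ± 0.08) and Dnaja1 (0.30 ± 0.07) rose beside Fkbp5, as did the coactivator Ncoa2 (0.25 ± 0.07). Fkbp4 competes with Fkbp5 for the same place on HSP90. Without the replicate block 2 genes of the list fell and 1 rose, and Nr3c1, Stip1, Hspa4, Dnaja1 and Ncoa2 were not called. Members that were not called included Hsp90ab1 (-0.08 ± 0.11), Hspa8 (0.39 ± 0.16), Hsph1 (-0.21 ± 0.08), Ptges3 (-0.18 ± 0.08), Ppid (0.25 ± 0.10), Dnajb1 (-0.13 ± 0.07), Bag1 (-0.15 ± 0.07) and Stub1 (-0.06 ± 0.14) among chaperones, Ncoa1 (0.34 ± 0.16), Ncor1 (-0.02 ± 0.07) and Nrip1 (0.08 ± 0.09) among coregulators, and the mineralocorticoid receptor gene Nr3c2 (-0.21 ± 0.27).

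A palindromic glucocorticoid response element was rare in the promoters of these genes. The 250 bases before the start that RefSeq gives, which can differ from the GENCODE gene bounds printed here, were read (GRCm38.p6) for 9062 of the 12259 genes and searched for AGNACANNNTGTNCT, the half-site AGNACA and its inverted copy TGTNCT with 3 bases between them. It occurred in 1 of 9062 genes, that of Sgk1 (0.011%), and in 0 of 424 genes called at least 2-fold higher. The half-site alone on either strand was in 43.6% of those 424 genes against 38.9% of all and 39.6% of genes at least 2-fold lower. The Sgk1 promoter is shown because it holds the one full element, in capitals 189 bases before the start (GRCm38, chr10:21993640-21993889, plus strand).
Sgk1 promoter: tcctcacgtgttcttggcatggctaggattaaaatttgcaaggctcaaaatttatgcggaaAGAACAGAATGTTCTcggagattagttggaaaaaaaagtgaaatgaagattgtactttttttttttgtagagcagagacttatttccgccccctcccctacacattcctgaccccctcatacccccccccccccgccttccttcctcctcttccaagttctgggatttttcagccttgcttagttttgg
Sgk1, a kinase gene induced by glucocorticoids in many tissues, went from 2.16 ± 0.797 to 2.98 ± 0.726 CPM here, and the groups overlapped (log2 fold change 0.54 ± 0.28, adjusted p = 0.13). A match of letters is a description of the window and draws no line to receptor binding, and elements outside these 250 bases were not searched.

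The 12 largest increases, taken among genes with at least 5 CPM in the higher treatment, started from under 1 CPM on average. Slc28a2 (chromosome 2, 122426477 to 122461137) stood at 0 and 0 CPM in the PEP+/+ IgE samples and at 0 and 0.0575 CPM in the PEP-/- IgE samples, against 9.31 and 9.69 CPM in PEP+/+ IgE DEX and 45.8 and 30.7 CPM in PEP-/- IgE DEX. Slc28a2, a sodium-coupled nucleoside transporter, had 1 count over the 4 IgE samples and 1406 over the IgE DEX samples, a ratio of 1160 (95% counting interval 208 to 45830). In both sets its PEP-/- IgE DEX samples stood above the PEP+/+ ones, and the genotype difference of the effect was not called. Sult1a1 (chromosome 7, 126672865 to 126676432) stood at 0.321 and 0.862 CPM in the PEP+/+ IgE samples and at 0.994 and 1.55 CPM in the PEP-/- IgE samples, against 222 and 346 CPM in PEP+/+ IgE DEX and 291 and 441 CPM in PEP-/- IgE DEX. Sult1a1, a phenol sulfotransferase, reached the highest level of this group, and its samples did not overlap (log2 fold change 8.42 ± 0.13, adjusted p = 8.67e-14). Ptgds (chromosome 2, 25466709 to 25470046) stood at 0.0804 and 0 CPM in the PEP+/+ IgE samples and at 0 and 0 CPM in the PEP-/- IgE samples, against 5.42 and 6.04 CPM in PEP+/+ IgE DEX and 13.9 and 16.7 CPM in PEP-/- IgE DEX. Ptgds, the lipocalin-type prostaglandin D2 synthase, rested on 1 count in the IgE samples and 590 in the IgE DEX samples (ratio 487, interval 87 to 19250). Its PEP-/- IgE DEX samples also stood above the PEP+/+ ones in both sets, and its genotype difference of the effect was not called. Fgr, a Src family kinase, and the olfactory receptor gene Olfr224 had no count in any IgE sample and were at least 87.7-fold and at least 90.8-fold higher with DEX, taking 3 counts over the IgE group as the floor. They averaged 5.23 ± 2.95 and 5.41 ± 4.02 CPM (SD, n = 4) there.

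Ahsg, which encodes fetuin-A, had 1 count over the IgE samples and 728 over the IgE DEX samples (ratio 600.4, interval 107 to 23750), and Bdh1, a ketone body dehydrogenase, 3 against 515 (ratio 142, interval 48.2 to 689). The others among the 12 largest increases were Gm27252 (7.21 ± 0.28), Tlr7 (7.06 ± 0.28), Gimap3 (6.94 ± 0.31), Vipr2 (6.40 ± 0.16) and Atp8b3 (6.39 ± 0.32). Gimap3 is a GTPase of immune cells, Vipr2 a receptor for vasoactive intestinal peptide and Atp8b3 a phospholipid flippase. Vipr2 went from 0.628 ± 0.239 to 54.2 ± 7.01 CPM and Gimap3 from 0.281 ± 0.265 to 41.9 ± 15.4 CPM.

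The 12 largest decreases were taken among genes with at least 5 CPM in the higher treatment, which for them is IgE. That floor left out Prss23, a serine protease gene with the lowest fitted value of all genes (-5.51 ± 0.46), which fell from 4.26 ± 3.6 to 0.114 ± 0.159 CPM, is named here after its value was seen and overlaps exons of a gene on the other strand. Trib2 (chromosome 12, 15791727 to 15816922) stood at 42.2 and 33.5 CPM in the PEP+/+ IgE samples and at 36.5 and 43.1 CPM in the PEP-/- IgE samples, against 3.97 and 1.87 CPM in PEP+/+ IgE DEX and 4.34 and 3.15 CPM in PEP-/- IgE DEX. Trib2, a pseudokinase, lay lower in every IgE DEX sample than in any IgE sample (log2 fold change -3.59 ± 0.17, adjusted p = 2.29e-09). Slit2 (chromosome 5, 47983138 to 48307733) stood at 7.79 and 1.53 CPM in the PEP+/+ IgE samples and at 11.4 and 2.88 CPM in the PEP-/- IgE samples, against 0.361 and 0.192 CPM in PEP+/+ IgE DEX and 0.733 and 0.233 CPM in PEP-/- IgE DEX. Slit2, a secreted guidance ligand, was higher in the numbered set and did not overlap between treatments (log2 fold change -3.89 ± 0.27, adjusted p = 9.11e-08). The others were Ung (-2.98 ± 0.22), Efcc1 (-2.77 ± 0.37), Ffar2 (-2.75 ± 0.21), Cd276 (-2.57 ± 0.12), Phldb1 (-2.53 ± 0.18), Tmem98 (-2.52 ± 0.20), Gbp9 (-2.51 ± 0.17), Pilrb2 (-2.48 ± 0.30) and Fbxl21 (-2.40 ± 0.14) beside Angptl4. Ung removes uracil from DNA, Ffar2 is a receptor for short-chain fatty acids, Cd276 the B7-H3 surface protein and Gbp9 a guanylate-binding protein. Cd276 fell from 60.3 ± 5.37 to 10.3 ± 2.17 CPM.

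Inhibitors of kinase and NF-kB signalling rose more often than they fell. Of 41 tested genes of this kind, 21 rose and 7 fell (median log2 fold change 0.29; all genes: 21.8% higher, 19.2% lower), and 9 of the increases were at least 2-fold. Nfkbia (chromosome 12, 55489410 to 55492647) stood at 23.1 and 21.4 CPM in the PEP+/+ IgE samples and at 21.7 and 23.4 CPM in the PEP-/- IgE samples, against 169.7 and 155 CPM in PEP+/+ IgE DEX and 179.9 and 206 CPM in PEP-/- IgE DEX. Nfkbia encodes IkB-alpha, which holds NF-kB in the cytoplasm, and its samples fell into 2 tight groups (log2 fold change 2.98 ± 0.08, adjusted p = 2.04e-11). Dusp1 (chromosome 17, 26505590 to 26562128) stood at 1.04 and 1.15 CPM in the PEP+/+ IgE samples and at 1.09 and 1.04 CPM in the PEP-/- IgE samples, against 20.1 and 22.6 CPM in PEP+/+ IgE DEX and 50.2 and 34.9 CPM in PEP-/- IgE DEX. Dusp1, the phosphatase that switches off p38 and JNK, rose from about 1 CPM (log2 fold change 4.88 ± 0.20, adjusted p = 6.70e-10). Dusp4, a second MAP kinase phosphatase, rose from 3.83 ± 1.36 to 72.5 ± 40.7 CPM (log2 fold change 4.16 ± 0.14, adjusted p = 9.85e-11). Ubash3b (-0.93 ± 0.08) and Spred2 (-0.78 ± 0.11) had the largest decreases of the list. Ubash3b is a phosphatase that acts on the kinase Syk, and Spred2 an inhibitor of Ras-ERK signalling.

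Of the factors that destabilize cytokine mRNAs, 4 of 10 rose and 1 fell (median log2 fold change 0.07; all genes: 21.8% higher, 19.2% lower). Without the replicate block 1 was called higher and 0 lower, and Zc3h12c and Hnrnpd were then not called. Zfp36l2 (chromosome 17, 84183931 to 84187947) stood at 248 and 277 CPM in the PEP+/+ IgE samples and at 299 and 331 CPM in the PEP-/- IgE samples, against 938 and 1043 CPM in PEP+/+ IgE DEX and 1107 and 1198 CPM in PEP-/- IgE DEX. Zfp36l2, which binds AU-rich elements, was thus high without DEX and higher with it (log2 fold change 1.89 ± 0.07, adjusted p = 1.57e-10). Zc3h12c, of the regnase family, rose (1.08 ± 0.15) and Hnrnpd (-0.47 ± 0.07) fell.

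**Figure D3:**
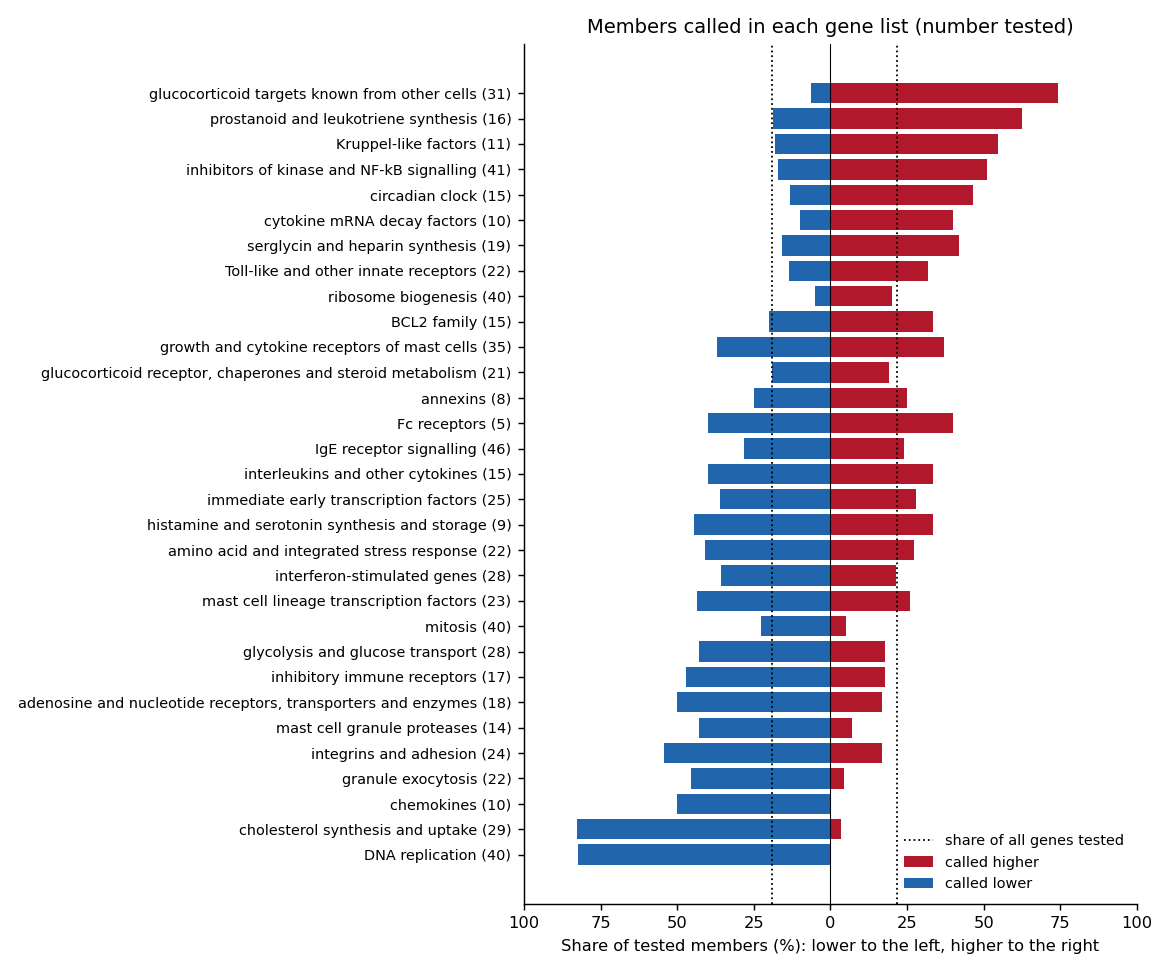
Share of the tested members of 31 gene lists that were called higher (red, to the right) or lower (blue, to the left), in percent, with the number tested after each name. Dotted lines mark the shares of all genes tested, 21.8% higher and 19.2% lower; the glucocorticoid targets stand at the higher end with 23 of 31 and DNA replication at the lower end with 33 of 40.

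Among granule protease genes more fell than rose. Of 14 tested genes of granule proteases and their activator, 1 rose and 6 fell (median log2 fold change -0.44; all genes: 21.8% higher, 19.2% lower). Gzmb (chromosome 14, 56258838 to 56262260) stood at 3044 and 1515 CPM in the PEP+/+ IgE samples and at 3043 and 1840 CPM in the PEP-/- IgE samples, against 592 and 310.0 CPM in PEP+/+ IgE DEX and 1027 and 547 CPM in PEP-/- IgE DEX. Gzmb encodes granzyme B and fell in every pairing of genotype and set, and the groups did not overlap (log2 fold change -1.99 ± 0.12, adjusted p = 3.26e-08). Mcpt1 (-1.43 ± 0.25) and Mcpt4 (-0.61 ± 0.21) also fell. The mast cell proteases Cpa3, Cma1 and Tpsb2, given here for their known role and chosen after their values were seen, were not called: the carboxypeptidase gene Cpa3 went from 38945 ± 5468 to 47513 ± 4803 CPM (adjusted p = 0.054), the chymase gene Cma1 from 14348 ± 5333 to 13796 ± 4778 CPM (adjusted p = 0.87) and the tryptase gene Tpsb2 from 7794 ± 2975 to 7881 ± 2477 CPM (adjusted p = 0.89). Ctsc, the dipeptidyl peptidase that activates granule proteases, was the member that rose, from 234 ± 58.9 to 674 ± 152 CPM (log2 fold change 1.53 ± 0.06, adjusted p = 7.75e-10).

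Histamine and serotonin genes moved in both directions. Of 9 tested genes of their synthesis and storage, 3 rose and 4 fell (median log2 fold change -0.12; all genes: 21.8% higher, 19.2% lower). Hdc (chromosome 2, 126593667 to 126619299) stood at 115 and 69.4 CPM in the PEP+/+ IgE samples and at 80.4 and 96.5 CPM in the PEP-/- IgE samples, against 485 and 278 CPM in PEP+/+ IgE DEX and 504 and 444 CPM in PEP-/- IgE DEX. Hdc, histidine decarboxylase, makes histamine, and each IgE DEX sample lay above each IgE sample (log2 fold change 2.21 ± 0.15, adjusted p = 6.52e-08). The serotonin transporter gene Slc6a4 (1.40 ± 0.18) rose, while Ddc (-1.69 ± 0.36) and Maob (-1.33 ± 0.07) fell. Ddc encodes an enzyme that makes serotonin, and Maob a monoamine oxidase. Slc18a2, which loads amines into vesicles, fell by 0.28 on the log2 scale (adjusted p = 0.021). In serglycin and heparin synthesis, of 19 tested genes, 8 rose and 3 fell (median log2 fold change 0.15), led by Xylt1 (0.95 ± 0.15) and Hs3st1 (0.91 ± 0.06) and by Hs6st1 (-0.77 ± 0.07) and B3galt6 (-0.75 ± 0.15), none of them 2-fold. In granule exocytosis, of 22 tested genes, 1 rose and 10 fell (median log2 fold change -0.19). The syntaxin gene Stx3 (1.10 ± 0.09) rose, and Sytl2 (-1.37 ± 0.08), a synaptotagmin-like Rab27 effector, had the largest decrease.

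The IgE receptor changed little. Of the 3 chains, Fcer1a rose slightly and Fcer1g fell slightly (Fcer1a (0.26 ± 0.09) and Fcer1g (-0.44 ± 0.08)), and Ms4a2, shown to complete the complex and chosen after its value was seen, was not called (-0.10 ± 0.11, adjusted p = 0.49). Of the IgG receptors, Fcgr3 (0.35 ± 0.08) rose and the inhibitory Fcgr2b (-0.30 ± 0.10) fell. Downstream, of 46 tested genes of IgE receptor signalling, 11 rose and 13 fell (median log2 fold change -0.02; all genes: 21.8% higher, 19.2% lower). All 4 IgE DEX samples lay below all 4 IgE samples for 10 of the 46 and above them for 7. The shares of all genes were 6.79% below and 9.54% above. The PI3-kinase subunit Pik3r1 (1.32 ± 0.06) and the Src family kinase Lyn (1.04 ± 0.07) rose most, and Nfatc2 (-1.12 ± 0.12) and Pdk1 (-1.05 ± 0.17) fell most. Nfatc2 is a calcium-driven transcription factor of cytokine genes, and Pdk1 here is pyruvate dehydrogenase kinase, which sat on this list and on that of glycolysis.

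Cytokine genes moved in both directions and chemokine genes that were called fell. Of 15 tested genes of interleukins and other cytokines, 5 rose and 6 fell (median log2 fold change -0.15), and of the chemokine genes, 5 of 10 fell and 0 rose (all genes: 21.8% higher, 19.2% lower). Il13 (chromosome 11, 53631324 to 53634702) stood at 5.63 and 5.56 CPM in the PEP+/+ IgE samples and at 4.07 and 3.68 CPM in the PEP-/- IgE samples, against 1.37 and 0.336 CPM in PEP+/+ IgE DEX and 0.507 and 0.466 CPM in PEP-/- IgE DEX. Interleukin 13, a cytokine of allergic inflammation, was lower in each IgE DEX sample (log2 fold change -2.91 ± 0.30, adjusted p = 4.69e-06). Tnfsf14 (LIGHT) fell from 39 ± 7.4 to 14.5 ± 3.19 CPM, and the chemokine genes Ccl1 and Ccl7 fell from 1.84 ± 0.654 to 0.543 ± 0.247 CPM and from 2.9 ± 0.452 to 1.22 ± 0.221 CPM. The decreases of Il13, Ccl1 and Ccl7 concern low levels. Ccl2, a monocyte chemoattractant chosen after its value was seen, fell from 196 ± 20.8 to 107 ± 16.7 CPM (log2 fold change -0.89 ± 0.10, adjusted p = 8.93e-06). Pdgfa (0.92 ± 0.14) and Il15 (0.86 ± 0.08) rose.

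Genes of prostanoid and leukotriene synthesis rose more often than they fell: of 16 tested genes, 10 rose and 3 fell (median log2 fold change 0.32; all genes: 21.8% higher, 19.2% lower). Ptgs2 (chromosome 1, 150100031 to 150108227) stood at 0.563 and 0.0958 CPM in the PEP+/+ IgE samples and at 0.795 and 0.173 CPM in the PEP-/- IgE samples, against 3.75 and 1.2 CPM in PEP+/+ IgE DEX and 13.4 and 3.38 CPM in PEP-/- IgE DEX. Ptgs2, the inducible cyclooxygenase, stayed low in all samples and did not overlap between treatments (log2 fold change 3.67 ± 0.29, adjusted p = 3.77e-07). In both sets its PEP-/- IgE DEX sample stood above the PEP+/+ one, and the numbered PEP-/- IgE DEX sample was the highest. The genotype difference of the effect was not called. Mgst3 (-0.63 ± 0.17) and Alox5 (-0.28 ± 0.08), the 5-lipoxygenase that starts leukotriene synthesis, fell.

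Surface receptors moved in both directions, as did all genes tested (21.8% higher and 19.2% lower). Of 35 tested growth and cytokine receptor genes of mast cells, 13 rose and 13 fell (median log2 fold change 0.08). Cxcr4 (chromosome 1, 128588199 to 128592293) stood at 2.65 and 1.72 CPM in the PEP+/+ IgE samples and at 0.994 and 2.01 CPM in the PEP-/- IgE samples, against 33.9 and 46.4 CPM in PEP+/+ IgE DEX and 54.2 and 49.7 CPM in PEP-/- IgE DEX. Cxcr4, the receptor for the chemokine CXCL12, rose (log2 fold change 4.60 ± 0.20, adjusted p = 8.16e-10), as did Il6st, the shared gp130 chain of the interleukin 6 family (3.08 ± 0.22). The chemokine receptor gene Ccr2 (-2.36 ± 0.16), which also marks monocytes, fell from 38 ± 27 to 7.3 ± 4.9 CPM. Of 22 tested genes of Toll-like and other innate receptors, 7 rose and 3 fell (median log2 fold change 0.14). Tlr7 (chromosome X, 167304929 to 167330558) stood at 0.0804 and 0.287 CPM in the PEP+/+ IgE samples and at 0.0994 and 0.115 CPM in the PEP-/- IgE samples, against 20.7 and 10 CPM in PEP+/+ IgE DEX and 36.3 and 15.5 CPM in PEP-/- IgE DEX. Tlr7, an endosomal sensor of single-stranded RNA, was close to silent without DEX (log2 fold change 7.06 ± 0.28, adjusted p = 3.86e-10). Tlr13 (2.80 ± 0.24) also rose, and Nod2 (-0.82 ± 0.19) and Ddx58 (-0.31 ± 0.07) fell.

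More inhibitory receptor genes fell than rose, with 8 of 17 lower and 3 higher (all genes: 19.2% lower, 21.8% higher). Lair1 (-1.21 ± 0.09) and Cd72 (-1.16 ± 0.30) fell most, and Siglecf (0.84 ± 0.28) and Havcr2 (0.83 ± 0.07) rose most. Of 18 tested genes that sense, carry or convert adenosine and nucleotides, 3 rose and 9 fell (median log2 fold change -0.28), Slc28a2 and the ectonucleotidase Entpd1 (0.51 ± 0.08) rose, and Entpd3 (-1.22 ± 0.13) and Adora2b (-0.90 ± 0.19) fell; Adora2b is an adenosine receptor. Of 24 tested genes of integrins and adhesion, 4 rose and 13 fell (median log2 fold change -0.31). Itgb3 (chromosome 11, 104608000 to 104670476) stood at 73.5 and 67.7 CPM in the PEP+/+ IgE samples and at 111 and 91.6 CPM in the PEP-/- IgE samples, against 459 and 436 CPM in PEP+/+ IgE DEX and 735 and 539.9 CPM in PEP-/- IgE DEX. Itgb3, the beta-3 integrin, rose without overlap (log2 fold change 2.66 ± 0.08, adjusted p = 2.91e-11). Cd34 (chromosome 1, 194938819 to 194961279) stood at 578 and 429.8 CPM in the PEP+/+ IgE samples and at 616 and 514 CPM in the PEP-/- IgE samples, against 2007 and 1519 CPM in PEP+/+ IgE DEX and 1945 and 1646 CPM in PEP-/- IgE DEX. CD34, a sialomucin of progenitors and mast cells, rose without overlap too (log2 fold change 1.74 ± 0.08, adjusted p = 1.05e-09). The tetraspanin gene Cd9 (-1.64 ± 0.07) and the integrin gene Itgax (-1.43 ± 0.16) fell.

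Transcription factor genes moved in both directions in each family read, as did all genes tested (21.8% higher and 19.2% lower). Of 11 tested Kruppel-like factor genes, 6 rose and 2 fell (median log2 fold change 0.53), with Klf9 (2.96 ± 0.10) and Klf2 (2.36 ± 0.29) the largest increases and Klf16 (-1.17 ± 0.13) and Klf11 (-0.78 ± 0.23) the decreases. Of 15 tested genes of the circadian clock, 7 rose and 2 fell (median log2 fold change 0.31), Ciart (2.69 ± 0.19) and Per1 (2.66 ± 0.08) rose most and Per3 (-0.86 ± 0.12) and Hlf (-0.48 ± 0.15) fell. Of 23 tested transcription factor genes of the mast cell lineage, 6 rose and 10 fell (median log2 fold change -0.16): Gfi1 (1.28 ± 0.10) and Mitf (0.58 ± 0.09) rose, Mitf being a master regulator of mast cells, and Erg (-1.26 ± 0.14) and Runx1 (-0.94 ± 0.06) fell. Of 25 tested immediate early transcription factor genes, 7 rose and 9 fell (median log2 fold change 0.02), and Atf3 (4.54 ± 0.48) and Fos (1.65 ± 0.34) rose from 0.0881 and 0.63 CPM while the NF-kB subunit Relb (-1.50 ± 0.14) and Egr3 (-1.29 ± 0.27) fell.

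Among genes of the BCL2 family, which governs cell survival, of 15 tested members, 5 rose and 3 fell (median log2 fold change 0.03). The family's share called lower was close to the 19.2% of all genes, of which 21.8% were called higher. Bcl2 (chromosome 1, 106538178 to 106714274) stood at 74.7 and 134 CPM in the PEP+/+ IgE samples and at 47.4 and 66.2 CPM in the PEP-/- IgE samples, against 503 and 535 CPM in PEP+/+ IgE DEX and 282 and 379 CPM in PEP-/- IgE DEX. Bcl2, the founding inhibitor of apoptosis, rose without overlap between treatments (log2 fold change 2.45 ± 0.10, adjusted p = 7.75e-10), and its PEP+/+ samples stood above the PEP-/- samples of the same set and treatment. The pro-apoptotic Bmf (1.28 ± 0.16) rose and Bbc3 (-0.52 ± 0.08) (PUMA) fell, as did Bcl2l2 (-0.31 ± 0.09).

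Genes that copy DNA fell as a group, while genes of mitosis mostly did not pass the test. Of the 40 genes of DNA replication, 33 fell and 0 rose, with a median log2 fold change of -0.70, and 10 fell at least 2-fold. Cdc6 (chromosome 11, 98907801 to 98923940) stood at 23.7 and 10.3 CPM in the PEP+/+ IgE samples and at 8.35 and 5.7 CPM in the PEP-/- IgE samples, against 8.16 and 4.37 CPM in PEP+/+ IgE DEX and 4.34 and 2.33 CPM in PEP-/- IgE DEX. Cdc6 loads the replicative helicase. It was lower with DEX in each of the 4 differences of genotype and set, although the groups overlap (log2 fold change -1.30 ± 0.15, adjusted p = 1.08e-05). All 6 subunits of the helicase, named here as the whole complex after their values were seen, fell: Mcm2 (-1.05 ± 0.09), Mcm3 (-0.28 ± 0.10), Mcm4 (-0.81 ± 0.10), Mcm5 (-0.89 ± 0.10), Mcm6 (-0.72 ± 0.09) and Mcm7 (-0.30 ± 0.11). In PEP-/- cells alone Mcm3 and Mcm7 had log2 fold changes of 0.01 and 0.00. Of the 40 genes of mitosis, 9 fell and 2 rose, with a median of -0.06. Of all genes tested, 19.2% were called lower and 21.8% higher. The share of mitosis genes called lower was thus close to that of all genes, and the share called higher was smaller. Cdk1 (-0.50 ± 0.09) and Ndc80 (-0.42 ± 0.10) fell most and Prc1 (0.43 ± 0.08) and Incenp (0.22 ± 0.07) rose. Without the replicate block, 8 of the 40 replication genes fell and 0 of the 40 mitosis genes did. The 9 decreases among mitosis genes were 4 without the numbered PEP+/+ IgE DEX sample and 5 without the numbered PEP+/+ IgE sample. They were 4 in the fit of all 16 samples and 4 in the lettered set alone. In PEP-/- cells alone 2 mitosis genes fell and 4 rose (median 0.05), and in PEP+/+ cells alone 7 fell and 0 rose (median -0.15).

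Promoters of replication genes are shown because E2F, the factor that drives entry into S phase, has a short known motif that can be read in them. The letters TTTCCCGC, TTTGGCGC, TTTCGCGC or TTTGCCGC, on either strand, were in 8 of 31 replication genes with a promoter (25.8%), in 1 of 33 mitosis genes (3.03%) and in 4.07% of all tested genes. The matches are in capitals below (RefSeq, GRCm38.p6) in Cdc6 (chr11:98907901-98908150, plus strand), Mcm5 (chr8:75109259-75109508, plus strand) and Mcm6 (chr1:128359706-128359955, minus strand). In Mcm5 and Mcm6 one run of capitals holds 2 matches that overlap, one on each strand.
Cdc6 promoter: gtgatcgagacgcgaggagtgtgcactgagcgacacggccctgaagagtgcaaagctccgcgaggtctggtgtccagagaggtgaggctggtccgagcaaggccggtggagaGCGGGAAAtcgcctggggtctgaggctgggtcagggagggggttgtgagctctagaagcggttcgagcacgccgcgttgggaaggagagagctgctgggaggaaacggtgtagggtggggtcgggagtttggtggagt
Mcm5 promoter: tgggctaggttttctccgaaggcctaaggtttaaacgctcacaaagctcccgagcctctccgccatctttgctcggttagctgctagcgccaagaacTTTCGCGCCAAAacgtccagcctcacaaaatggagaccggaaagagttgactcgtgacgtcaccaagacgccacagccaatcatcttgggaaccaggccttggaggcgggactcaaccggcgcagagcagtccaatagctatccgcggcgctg
Mcm6 promoter: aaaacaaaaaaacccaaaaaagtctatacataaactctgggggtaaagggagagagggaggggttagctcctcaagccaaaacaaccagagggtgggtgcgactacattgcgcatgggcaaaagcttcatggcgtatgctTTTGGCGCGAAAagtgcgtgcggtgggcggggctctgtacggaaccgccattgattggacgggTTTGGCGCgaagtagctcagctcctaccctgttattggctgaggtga
Cdc6 fell the most of these 3 genes, and its match lies 138 bases before the RefSeq start, which is downstream of the GENCODE start given above.

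Cholesterol synthesis and uptake fell almost whole. Of 29 tested members, 24 fell and 1 rose (all genes: 19.2% lower, 21.8% higher), with a median log2 fold change of -0.74, and 9 fell at least 2-fold. Fdps (chromosome 3, 89093588 to 89101959) stood at 168 and 138 CPM in the PEP+/+ IgE samples and at 181 and 128 CPM in the PEP-/- IgE samples, against 74.5 and 46.6 CPM in PEP+/+ IgE DEX and 60 and 34.9 CPM in PEP-/- IgE DEX. Fdps makes farnesyl diphosphate, the branch point to sterols and prenylated proteins, and fell without overlap (log2 fold change -1.54 ± 0.09, adjusted p = 2.57e-08). Hsd17b7 (-1.67 ± 0.17), a late enzyme of the pathway, fell furthest. The member that rose was Abca1, the exporter of cholesterol, from 6.35 ± 5.18 to 29 ± 11.2 CPM (log2 fold change 2.33 ± 0.21, adjusted p = 1.44e-06). Without the replicate block 7 of the 29 were called lower. The sterol regulatory element TCACNCCAC on either strand was in 1 of 21 of these genes with a promoter (4.76%) and in 1.27% of all. That gene is Hmgcs1 (-1.10 ± 0.08, chosen for this match), the synthase at the head of the pathway, and its promoter is shown with the element in capitals 137 bases before the start (RefSeq, GRCm38.p6, chr13:119690101-119690350, plus strand).
Hmgcs1 promoter: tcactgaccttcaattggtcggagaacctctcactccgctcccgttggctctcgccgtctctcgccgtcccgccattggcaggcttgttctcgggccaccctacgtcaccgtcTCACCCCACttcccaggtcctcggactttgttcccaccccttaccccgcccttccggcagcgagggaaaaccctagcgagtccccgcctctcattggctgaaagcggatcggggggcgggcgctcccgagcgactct

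**Figure D4:**
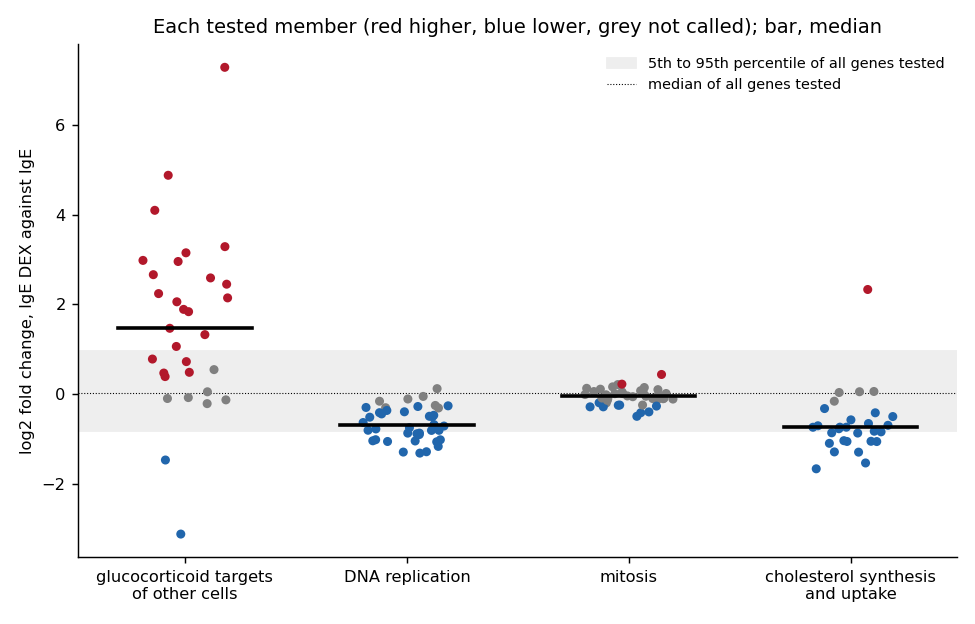
Log2 fold change by DEX of each tested member of 4 gene lists, red for called higher, blue for called lower and grey for not called, with a bar at the list's median. The shaded band spans the 5th to the 95th percentile of all genes tested; the medians lie at 1.46, -0.70, -0.06 and -0.74 from left to right.

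PEP+/+ and PEP-/- cells were also fitted apart. Across the 12172 genes fitted in each genotype alone, the log2 fold changes had a Pearson correlation of 0.882, a description over genes, which are not independent. Of the 5000 genes called over both genotypes and fitted in each, 4998 had the same sign in both, a count that the choice of called genes favours. The test of the difference itself called 1 gene of 12259 (0.00816%), and 655 had an unadjusted p under 0.05; DESeq2 called 2, and the test without the replicate block called 0. That gene was Atp8b4, which encodes a phospholipid flippase. Atp8b4 (chromosome 2, 126320973 to 126500674) stood at 10.1 and 4.12 CPM in the PEP+/+ IgE samples and at 15.2 and 4.72 CPM in the PEP-/- IgE samples, against 46.4 and 15.5 CPM in PEP+/+ IgE DEX and 9.81 and 3.26 CPM in PEP-/- IgE DEX. It was higher with DEX in both PEP+/+ pairs and lower in both PEP-/- pairs, a difference of -2.68 ± 0.24 on the log2 scale (adjusted p = 0.00116).

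With antigen present, DEX was compared with no DEX in the 8 other samples of the series. No label says whether these came from other mice or cultures, but the effects with and without antigen share no library. Of the 2-fold increases above, 546 were tested there and 483 were called higher, and of the 2-fold decreases 305 of 357 were called lower, in a comparison that called 15.1% of its 12050 genes higher and 14.4% lower. The difference of the effects, fitted on all 16 samples, was called for 206 of 12762 genes with a lower DEX effect with antigen (1.61%) and for 118 with a higher one (0.925%). Of these 324 differences in all, 70 were called without the replicate block, 206 without the lettered PEP-/- IgE DNP sample, and DESeq2 called 500. Among the former, those with the smallest p included Arl5b (3.62 ± 0.08 without and 1.26 ± 0.15 with antigen), Dusp4 (4.16 ± 0.14 without and -0.22 ± 0.14 with antigen), Jcad (3.77 ± 0.09 without and 0.58 ± 0.15 with antigen) and Mir155hg (1.37 ± 0.24 without and -1.98 ± 0.17 with antigen). Dusp4 averaged 3.48 CPM with IgE, 64.9 with IgE DEX, 57.2 with IgE DNP and 48.7 with IgE DNP DEX (n = 4 each, scaled over all 16 samples), the other 3 means all lying above that with IgE alone. In the other direction stood Nfe2 (-0.61 ± 0.07 without and 0.74 ± 0.12 with antigen), Rap2b (-0.14 ± 0.07 without and 0.85 ± 0.09 with antigen), Kcne3 (-0.97 ± 0.09 without and 0.40 ± 0.15 with antigen), Rab19 (-0.89 ± 0.07 without and 0.29 ± 0.14 with antigen) and Plau (-0.56 ± 0.06 without and 0.42 ± 0.11 with antigen). Nfe2, a transcription factor, averaged 183, 118, 53.9 and 88.2 CPM in that order. Of the 31 glucocorticoid targets, 10 were among the called differences.

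**Figure D5:**
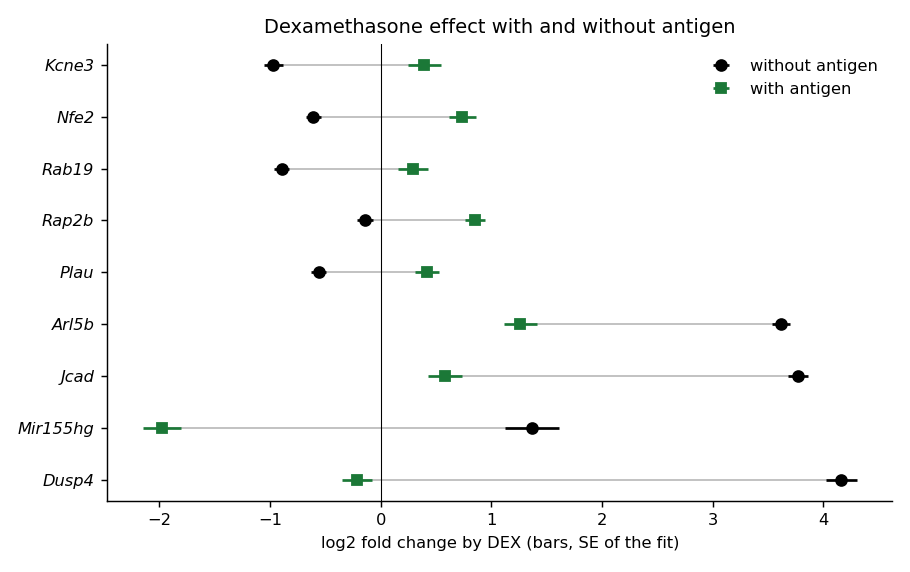
Log2 fold change by DEX without antigen (black circles) and with antigen (green squares) of 9 genes among those with the smallest p for the difference, 4 lower and 5 higher with antigen, with bars for the standard error of the fit. Dusp4 stands at 4.16 without antigen and near 0 with it, and the 5 genes at the top lie below 0 without antigen and above it with antigen.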

How the data were processed

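RNA was sequenced from BMMCs under 8 conditions with 2 replicates each. According to the study's methods and the labels, the authors aligned reads with TopHat2 to GRCm38 and counted them on Ensembl genes with HTSeq; the library kit keeps strand, and the strand setting of the counting is not given in the sources used here. The authors deposited raw counts for 39179 genes per sample, with 5 rows for unassigned reads that were left out (29.1 to 39.7% of the counted total in the 8 samples compared). Gene names came from GENCODE M21 on GRCm38 for 37693 identifiers (96.21%). Where exons of a gene on the other strand overlap (Sult1a1, Bdh1, Phldb1, Dusp1, Bcl2, Cd34 and others), or genes share near-identical copies, counts are uncertain.

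Counts were filtered with filterByExpr (minimum count 10) and TMM-normalized. The edgeR 4.0.16 quasi-likelihood test in R 4.3.3 had genotype, replicate set and DEX as terms and 4 residual degrees of freedom (genotype interaction 3, antigen interaction on 16 samples 10). The replicate numbers come from the titles: set differences of any 2 of the 4 conditions correlated at 0.767 to 0.833 over genes, so the set was kept as a replicate block. Replicate counts differed beyond sampling noise in every condition. Median depth was 12865012 counts per sample; the reads carry no molecular identifiers, so counting intervals (exact, 95%) cover counting error only.

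Members and gene lists were chosen with earlier results of these data known. Named genes follow a rule: Ptpn22; the 12 largest changes each way among called genes that moved alike in all 4 differences with at least 5 CPM in the higher treatment; every tested member of the first 2 lists; the 2 largest called changes each way in each other list; up to 5 genes per direction and interaction. Exceptions are marked, and a few genes that the rule names are not reported here. Alternatives were no replicate block, DESeq2 1.42.0, its size factors, 2 filters, all 16 samples, each genotype or set alone, a 2-fold threshold and each replicate left out. The test was checked on simulated counts.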

Additional observations from a re-analysis of the deposited data

Results flagged for a closer look

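In the sets of 4 samples given one by one, 1 sample stood apart for 4 genes, a flag that chance raises in about 1 of 20 sets: the highest IgE sample at 0.0575 CPM of Slc28a2, at 0.0804 CPM of Ptgds and at 0.287 CPM of Tlr7, and the highest IgE DEX sample at 1.37 CPM of Il13. The first 3 rest on 1 to 3 counts. For Slc28a2 and Ptgds all the other IgE samples stood at 0, so any count in 1 sample raised the flag. The rate of 1 in 20 is that of normally spread values and does not hold for such sets.

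The DEX effect differed between genotypes by -2.68 on the log2 scale for Atp8b4, PEP-/- minus PEP+/+. Among the genes named, it was lower with antigen than without by these log2 differences: Atf3 -7.40, Ptgs2 -4.83, Dusp4 -4.39, Mir155hg -3.37, Jcad -3.19, Dusp1 -2.99, Nfkbia -2.77, Ccl7 -2.59, Irs2 -2.46, Sgk1 -2.45, Arl5b -2.37, Zc3h12c -2.35, Klf9 -2.11, Gbp3 -1.74, Il6st -1.64, Errfi1 -1.25, Cdkn1a -1.24, Csf1 -1.20, Hlf -1.16, Pdgfa -1.15, Hs3st1 -1.14, Ccl2 -1.13, Ncoa1 -1.06, Per1 -1.04, Hdc -0.99, Dnajb1 -0.87, Slc2a1 -0.80, Pfkfb3 -0.79, Havcr2 -0.63 and Ctsc -0.51. It was higher with antigen for Prss23 2.92, Angptl4 2.51, Rsad2 1.96, Trib2 1.85, Kcne3 1.35, Nfe2 1.35, Rab19 1.18, Ddit4 1.12, Rap2b 0.99, Epor 0.99, Plau 0.98, Bbc3 0.97, Relb 0.95, Hs6st1 0.76 and Cd276 0.76. Each of these differences was tested in the fit of all 16 samples. Atf3 and Ptgs2, at the head of the first series, averaged 2.58 and 5.42 CPM with IgE DEX, so their increases without antigen concern low levels.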

How the results depend on the processing

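The number of genes called between IgE DEX and IgE (5016) was 1340 with no replicate block, 2857 in PEP+/+ samples alone and 970 when a 2-fold change was also required; it was 4102 to 4859 with each replicate left out and within 1.5 times in the other settings. The genotype difference was called for 1 gene, for 0 without the replicate block, 2 by DESeq2, 49 with no filter, and for 0 to 6 with each replicate left out (0 without the numbered PEP-/- IgE DEX sample, 6 without either PEP+/+ IgE sample). The antigen difference (324) was 70 without the replicate block, 500 by DESeq2 and 206 to 418 with each replicate left out, the lowest without the PEP-/- IgE DNP sample of the lettered set; the causes were not tested. Of 182 named genes that were called, 68 were no longer called without the replicate block and 22 lost their call in at least 1 fit with a replicate left out. Not called without the block were Adora2b, Alox5, Anxa11, Anxa5, Bbc3, Bcl2l2, Bcl6, Bmf, Ccr2, Cd72, Cdc6, Cdk1, Cebpd, Csf1, Ddx58, Dnaja1, Ebna1bp2, Egr3, Entpd1, Epor, Fcer1a, Fcer1g, Fcgr2b, Fcgr3, Fos, Gadd45a, Gnl3, Hbb-bt, Hlf, Hmgcs1, Hnrnpd, Hsd17b7, Hspa4, Ighm, Il5ra, Incenp, Itga2b, Itgax, Klf11, Mcm2, Mcm3, Mcm4, Mcm5, Mcm6, Mcm7, Mcpt4, Mgst3, Mir155hg, Mitf, Ncoa2, Ndc80, Nod2, Nop58, Nr3c1, Pdgfrb, Pdk1, Prc1, Siglecf, Slc18a2, Slc19a2, Slc2a1, Slc6a4, Slc7a5, Spred2, Stip1, Tgm2, Xylt1 and Zc3h12c. DNA replication genes called lower (33) were 27 to 34 and cholesterol genes (24) 22 to 25 in the settings other than no replicate block, and glucocorticoid targets called higher (23) were 19 to 25 in all. Called genes that changed sign in a setting were Mcm3 and Mcm7; the other sign changes were of genes that were not called. The log2 fold changes with the other sign were without the replicate block Zfp36 -0.00107; in PEP+/+ alone Cd163 0.00935, Nr3c2 0.14, Stub1 0.0745, Zfp36 -0.47; in PEP-/- alone Hsp90ab1 0.0694, Errfi1 0.13, Mcm7 0.000848, Mcm3 0.00521, Nrip1 -0.00579, Atp8b4 -0.60; in the numbered set Hsp90ab1 0.18, Errfi1 0.29, Zfp36 -0.0449; in the lettered set Ms4a2 0.15, Nrip1 -0.0176; with each replicate left out, values ran over 0 for Ncor1 -0.0767 to 0.0227, Errfi1 -0.34 to 0.14, Anxa1 -0.27 to 0.0109, Stub1 -0.18 to 0.0971, Zfp36 -0.20 to 0.22, Hsp90ab1 -0.21 to 0.0607. With 4 residual degrees of freedom and 9096387 counts in the shallowest sample, small changes of genes at a few CPM are the least certain.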

Other observations

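Some further groups moved less evenly. Of 28 tested interferon-stimulated genes, 6 rose and 10 fell (median log2 fold change -0.20): Gbp3 (2.02 ± 0.17) and Irgm1 (1.19 ± 0.14) rose most, both GTPases of cell-autonomous immunity, and Oas3 (-2.32 ± 0.36) and Rsad2 (-1.53 ± 0.23) fell most. Of 28 tested genes of glycolysis and glucose transport, 5 rose and 12 fell (median log2 fold change -0.27), with Pfkfb3 (2.85 ± 0.12) and Slc2a1 (0.88 ± 0.08) higher and Pdk1 (-1.05 ± 0.17) and Slc16a3 (-0.84 ± 0.08) lower. Pfkfb3, which makes the activator of phosphofructokinase, went from 43.4 ± 10.3 to 312 ± 84.2 CPM (SD, n = 4). Of 22 tested genes of amino acid supply and the integrated stress response, 6 rose and 9 fell (median log2 fold change -0.26): the cystine carrier gene Slc7a11 (1.49 ± 0.16) and Ddit4 rose most and Phgdh (-1.49 ± 0.23) fell most, followed by Slc7a5, from 94.7 ± 35.1 to 48.3 ± 20.2 CPM. Of 40 tested genes of ribosome biogenesis, 8 rose and 2 fell (median log2 fold change 0.11), with Polr1a (1.08 ± 0.11) and Gnl3 (0.65 ± 0.12) and Nop58 (-0.42 ± 0.14) and Ebna1bp2 (-0.37 ± 0.10) the largest in each direction; the shares of all genes were 21.8% and 19.2%, and the list's median was -0.08 in PEP+/+ and 0.30 in PEP-/- cells alone. Among annexins, Anxa11 (0.28 ± 0.08) and Anxa5 (0.19 ± 0.07) rose and Anxa6 (-0.52 ± 0.07) and Anxa4 (-0.50 ± 0.09) fell.

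Markers of other blood cells were also read. Of basophil markers, Cd69 (1.85 ± 0.06) and Csf1 (0.26 ± 0.08) rose. Of eosinophil markers, Il5ra (0.79 ± 0.18) and Siglecf (0.84 ± 0.28) rose and Ccr3 (-1.13 ± 0.12) fell; of erythroid and megakaryocyte markers, Itga2b (0.28 ± 0.08) rose and Hbb-bt (-0.59 ± 0.22) and Epor (-0.57 ± 0.18) fell; of lymphocyte markers, Ighm (-2.21 ± 0.24) fell, and of dendritic cell markers Itgax fell. The dendritic cell markers summed to 17.2 to 49.3 and 17.1 to 35 CPM and the eosinophil markers to 14.9 to 23.4 and 10.3 to 18.8 CPM. The erythroid and megakaryocyte markers summed to 2158 to 3658 CPM without and 2705 to 4186 CPM with DEX. That sum was higher with DEX in every pairing of genotype and set, and 4 of its 12 members were tested. Whether other cells took part in these results was not tested.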
